A study of Mus musculus with 18 samples.

Results

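Gart and 8 other enzymes of purine nucleotide synthesis were followed in mouse kidney across 3 genotypes that differ in gene dose. The genes were chosen by name from the deposited tables: Gart, Ppat, Pfas, Paics, Adsl, Atic, Impdh1, Impdh2 and Gmps, 9 of 55385 genes. Only Gart lies on the triplicated segment. PolyA RNA of whole kidney was sequenced from 18 mice aged 17.1 to 18.0 weeks, 6 per genotype, with 3 males and 3 females in each. The wild-type mice were C57BL/6J. Dp16 mice, used as a model of Down syndrome, carry in every cell an additional copy of a stretch of chromosome 16, so that its genes are present at 3 copies in place of 2. Dp16 2xIFNRs mice carry the same duplication, but with the interferon receptor genes inside it back at 2 copies. Gart is at 3 copies in both Dp16 groups. The labels give the strain of the wild-type mice, and the breeding background of the Dp16 groups is not given in the sources used here.

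De novo synthesis builds the purine ring step by step on phosphoribosyl pyrophosphate (PRPP) and ends at inosine monophosphate (IMP), which is then turned into AMP or GMP. Ppat starts the pathway. Gart, a single protein with 3 enzyme activities, carries out several of the early steps, Pfas and Paics follow, and Adsl and Atic complete IMP, with Atic and one activity of Gart using folate-bound formyl groups. Impdh1 and Impdh2, the isozymes that commit IMP to guanine nucleotides, and Gmps then make GMP. The kidney also handles urate, a breakdown product of purines, so the salvage, breakdown and urate transport genes were counted as well.

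Gart occupies chr16:91621186-91646952 on the minus strand (GRCm38, GENCODE M21), inside the segment at chr16:75540514-97962622 that holds 384 genes of the tables. The other enzymes lie elsewhere: Ppat at chr5:76913249-76951578 (minus), Paics at chr5:76951307-76967509 (plus), Pfas at chr11:68985697-69008460 (minus), Adsl at chr15:80948490-80970946 (plus) and Atic at chr1:71557150-71579631 (plus). Impdh1 lies at chr6:29200434-29216364 (minus), Impdh2 at chr9:108560286-108565584 (plus) and Gmps at chr3:63976106-64022579 (plus). Ppat and Paics are neighbours that run away from each other: their annotated starts are 271 bases apart and the gene models overlap by 272 bases. Gart and its neighbour Son, which encodes a splicing cofactor, also run away from each other, with starts 554 bases apart. An antisense gene, Gm15964, overlaps Gart by 2676 bases and had 293 counts over all 18 libraries, against 1958 to 3690 counts of Gart in each library. The strand setting of the counting is not given in the sources used here, so reads of overlapping genes on opposite strands may be shared.

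Promoter windows of RefSeq (GRCm38.p6), each 300 bases long with 250 before and 50 after the gene start, were found for 8 of the 9 genes. Those of 4 genes are printed here, because Gart is the gene at 3 copies, Paics and Ppat share a start region but differ in level, and Impdh2 moved opposite to Gart between the sexes. Capitals mark matches, on either strand, to the E-box CACGTG (the Myc and Max motif), the NRF1 motif GCGCATGC and the CCAAT box.
Gart, chr16:91646923-91647222, minus strand: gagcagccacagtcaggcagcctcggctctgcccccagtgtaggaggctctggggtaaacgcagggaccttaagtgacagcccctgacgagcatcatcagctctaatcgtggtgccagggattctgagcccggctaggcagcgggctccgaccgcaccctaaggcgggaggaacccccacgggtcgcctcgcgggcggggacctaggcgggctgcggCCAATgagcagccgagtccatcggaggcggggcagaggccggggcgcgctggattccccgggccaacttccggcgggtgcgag
Paics, chr5:76951052-76951351, plus strand: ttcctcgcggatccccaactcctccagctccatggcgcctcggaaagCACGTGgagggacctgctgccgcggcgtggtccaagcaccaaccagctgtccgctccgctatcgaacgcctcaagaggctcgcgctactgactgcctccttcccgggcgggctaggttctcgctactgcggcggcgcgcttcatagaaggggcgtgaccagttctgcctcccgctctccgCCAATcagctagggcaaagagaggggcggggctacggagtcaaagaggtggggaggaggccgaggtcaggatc
Ppat, chr5:76951529-76951828, minus strand: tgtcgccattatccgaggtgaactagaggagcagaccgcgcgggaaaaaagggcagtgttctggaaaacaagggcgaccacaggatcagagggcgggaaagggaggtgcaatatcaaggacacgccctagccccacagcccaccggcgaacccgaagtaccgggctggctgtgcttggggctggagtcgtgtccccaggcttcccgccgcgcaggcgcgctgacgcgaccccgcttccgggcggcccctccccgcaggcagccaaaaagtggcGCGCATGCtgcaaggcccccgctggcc
Impdh2, chr9:108560186-108560485, plus strand: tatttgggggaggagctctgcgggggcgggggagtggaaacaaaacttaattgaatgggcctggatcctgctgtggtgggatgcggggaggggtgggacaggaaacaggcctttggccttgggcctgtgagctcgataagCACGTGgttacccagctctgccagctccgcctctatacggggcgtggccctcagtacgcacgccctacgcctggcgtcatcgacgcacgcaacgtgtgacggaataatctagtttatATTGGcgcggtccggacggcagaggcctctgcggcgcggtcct
The E-box was found in the windows of Paics, Atic and Impdh2, 3 of 8 genes, and in 7.15% of all 32851 promoter windows. The NRF1 motif was found for Ppat only, 24 bases after its start, and in 2.71% of all windows. CCAAT was found for 4 genes, Gart, Paics, Atic and Impdh2, and in 37.4% of all windows. In Gart it begins 33 bases before the start and in Paics 23 bases before. The GC box GGGCGG, not set in capitals, was found for 8 of 8 genes and in 35.7% of all windows. These are matches of letters and not measured binding.

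Library totals ranged from 42157790 to 57814587 counts, and mitochondrial genes took 6.34% to 10.88% of them. All 9 enzymes passed the filter on low counts, which kept 17575 genes. Markers of proximal tubule, loop of Henle, collecting duct and podocytes were present in every group. The summed level of 10 macrophage markers was 174.9 to 249.8 CPM (counts scaled to the TMM-adjusted library total) in wild-type, 274.7 to 340.7 in Dp16 and 258.3 to 345.1 in Dp16 2xIFNRs, and that of 14 lymphocyte markers was 74.91 to 130.2, 193.8 to 692.7 and 142.2 to 462.3 CPM. The wild-type ranges lay below those of both Dp16 groups, 8 and 7 of the 10 macrophage markers were called higher in Dp16 and in Dp16 2xIFNRs, and 5 and 3 of the 14 lymphocyte markers, where 3.17% of all tested genes were called higher in each comparison. Their part in the results below was not tested. In bulk tissue, fewer cells of a type and less RNA per cell cannot be told apart. Among wild-type libraries, replicate 5 had 87.91 CPM of adrenal markers, against 3.087 to 13.26 CPM in the other libraries of the study. Fat markers were present in every library, with sums of 129 to 196.4 CPM in wild-type, 157 to 247.8 in Dp16 and 100.6 to 201.9 in Dp16 2xIFNRs. Of these 5 markers, Adipoq was called higher in Dp16 and Ucp1 lower in Dp16 2xIFNRs. Of all tested genes, 3.17% and 1.61% were called that way. The part of fat in the results below was not tested. The p-values of the tests between groups set a difference against the spread between these animals.

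Per gene length, Paics, the enzyme that carboxylates the first closed ring and adds aspartate to it, was the most abundant of the 9 transcripts. Its RPKM (counts per kilobase of gene length, scaled to the library total) was 94.1 at the lowest, 109.6 at the median and 123 at the highest over the 18 animals. Impdh2 followed at 15.9, 19.9 and 25.5 RPKM. Gart stood at 9.81, 14.1 and 16.3 RPKM, Atic at 11.7, 13.2 and 15.1, Adsl, the lyase used both on the way to IMP and on the way to AMP, at 10.1, 11.7 and 13.5, and Ppat at 9.37, 11.2 and 13.4. Those 4 ranges overlap one another, and Gart overlaps the lowest Impdh2 values. Gmps was lower at 6.08, 7.26 and 8.05 RPKM, without overlap with its neighbours in the order. Pfas had 2.86, 3.85 and 4.95 RPKM and Impdh1 2.51, 3.50 and 4.73, and these ranges overlap each other.

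Paics and Ppat show a wide gap in level despite their shared start region. The ratio of Paics to Ppat RPKM was 9.81 ± 1.22 (SD, n = 18), from 8.09 to 12.1. It was 10.1 ± 1.71 in wild-type, 9.98 ± 1.08 in Dp16 and 9.35 ± 0.783 in Dp16 2xIFNRs (SD, n = 6 each), so the spread within a genotype exceeded the differences between genotypes. Processed pseudogenes of Paics (Gm19241, 91.2% identical over the aligned part, and Gm4797) had 18 and 3 counts in all libraries. Impdh2-ps, 99.7% identical to Impdh2 over 1545 bases, had 241 counts, 0.686% of the 35121 counts given to Impdh2, and reads of such a copy may be split between the genes.

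**Figure D1:**
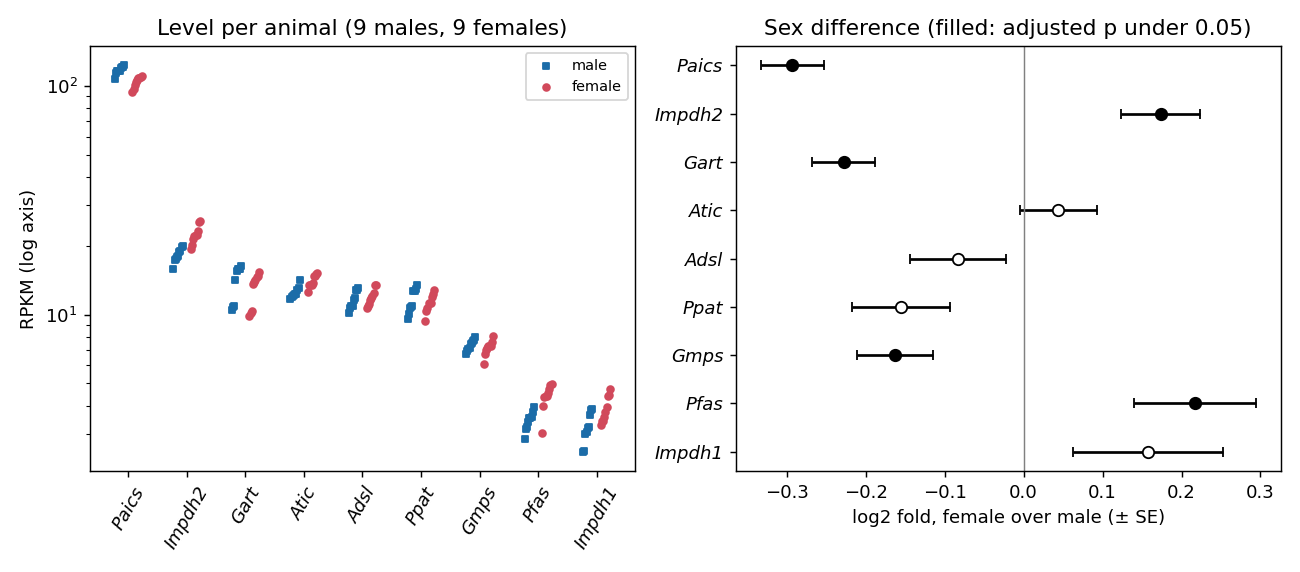
Left, the level of each enzyme in RPKM on a log axis, one point per animal, 9 males and 9 females. Paics lies above 94 RPKM in every animal and the other genes below 26. Right, log2 fold of female over male with its SE from the edgeR fit, filled where the adjusted p passed the threshold of 0.05, which holds for Paics, Gart, Gmps, Impdh2 and Pfas.

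Gart was higher in both groups that carry the extra copy. In wild-type kidneys its level was 38.0 CPM at the lowest, 41.9 at the median and 46.6 at the highest, with a mean of 42.3 ± 3.68 (SD, n = 6). In Dp16 kidneys it was 52.7, 57.7 and 65.3 CPM, with a mean of 58.5 ± 5.55. In Dp16 2xIFNRs kidneys it was 50.8, 60.5 and 67.7 CPM, with a mean of 60.4 ± 6.34. Every one of the 12 animals with the duplication lay above every wild-type animal, a separation that 1.3% of all tested genes showed in Dp16 and 1.56% in Dp16 2xIFNRs in either direction. The 2 groups with the duplication overlapped each other, and 0.0797% of genes were free of overlap there.

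The fold of Dp16 over wild-type was 1.38 for Gart, a log2 fold of 0.47 ± 0.05 (SE, adjusted p = 1.16e-05, edgeR quasi-likelihood test). The fold of Dp16 2xIFNRs over wild-type was 1.43 (adjusted p = 5.81e-06 in the same edgeR fit). Both comparisons share the wild-type animals. By an exact two-sided permutation within sex, the Gart difference was 0.47 on the log2 scale (95% interval 0.39 to 0.53, p = 0.005) for Dp16 and 0.51 (0.43 to 0.59, p = 0.005) for Dp16 2xIFNRs. The p of 0.005 is the smallest that the 400 arrangements allow. A level in proportion to 3 copies over 2 would be 0.585 on this scale. That value lay above the Dp16 interval, also in the 14 alternatives tried (highest upper bound 0.561), and inside the Dp16 2xIFNRs interval, as in 11 of 14 alternatives. It lay outside without wild-type replicate 1, without Dp16 2xIFNRs replicate 2 and without Dp16 2xIFNRs replicate 3, with upper bounds of 0.582, 0.572 and 0.583.

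Gart did not differ detectably between the 2 groups that carry the duplication. Dp16 2xIFNRs over Dp16 was 0.046 ± 0.05 on the log2 scale (SE, adjusted p = 0.877 in edgeR), and the 95% permutation interval ran from -0.06 to 0.15 (exact permutation p = 0.31). Without wild-type replicate 5, the library with adrenal transcripts, the Gart log2 fold was 0.46 for Dp16 and 0.51 for Dp16 2xIFNRs. Without Dp16 replicate 3, the library with the highest summed lymphocyte and fat markers, the Gart log2 fold for Dp16 was 0.47.

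The place of Gart in the order of levels differed between genotypes. In wild-type kidneys Gart had 10.4 ± 0.4 RPKM (SD, n = 6), below Atic at 13.1 ± 1.17, and the ranges of these genes did not overlap. Its wild-type mean was also under those of Adsl (11.4 ± 1.15) and Ppat (10.7 ± 0.832), with overlapping ranges. In Dp16 kidneys Gart had 14.7 ± 0.925 RPKM, above the whole range of Adsl and of Ppat, while Atic at 13.1 ± 1.05 overlapped it.

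**Figure D2:**
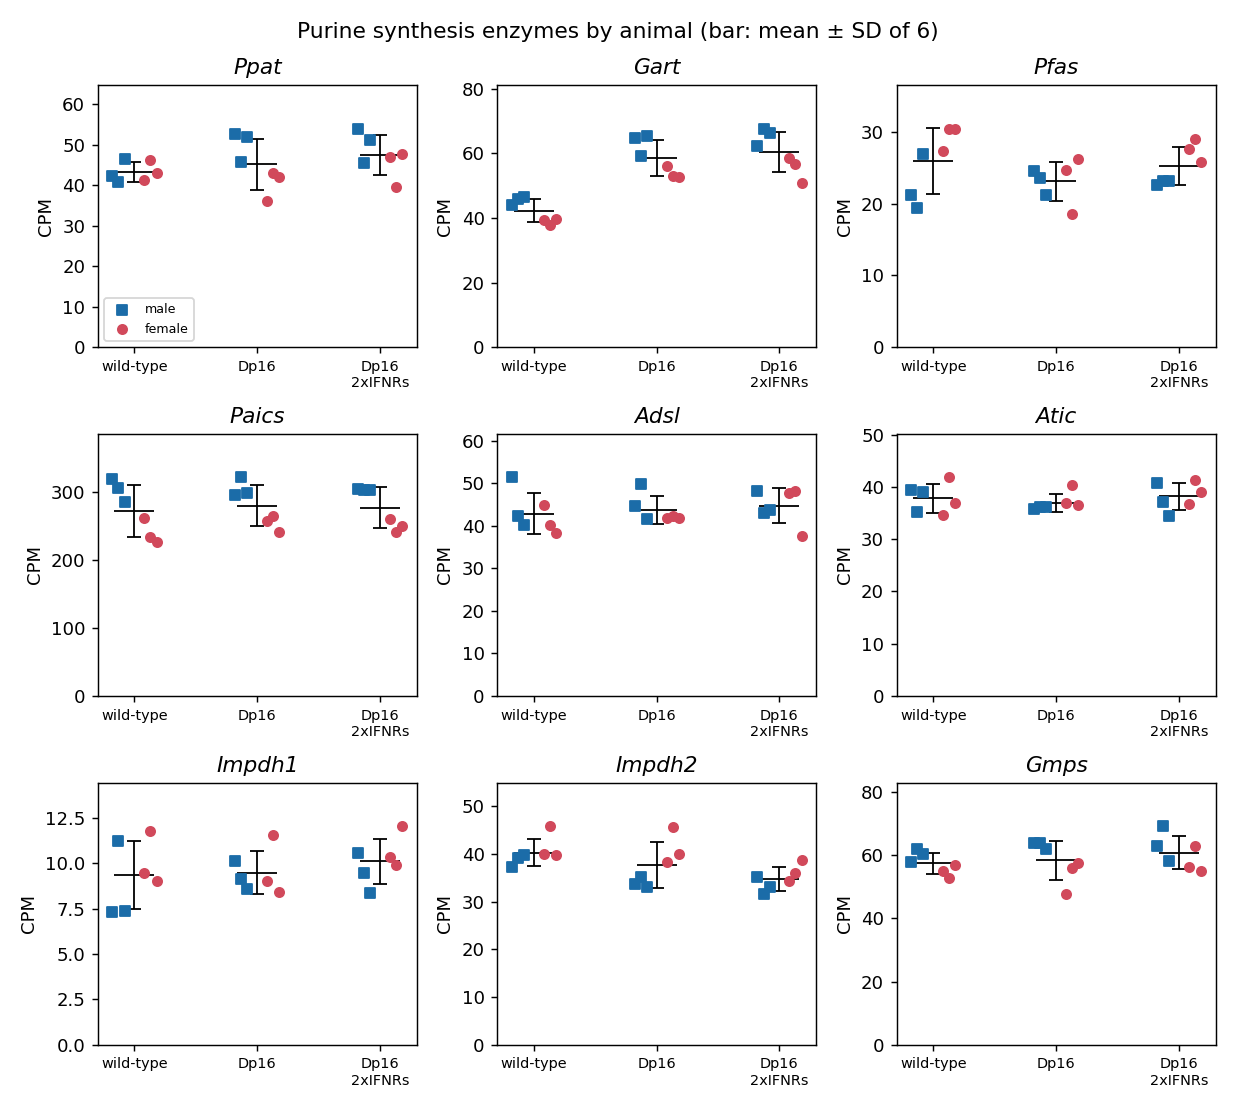
Level in CPM of each of the 9 enzymes, one panel per gene with its own axis from 0, one point per animal and a bar for the mean ± SD of 6 animals per genotype. The 12 Gart points with the duplication lie from 50.8 to 67.7 CPM, above the wild-type points at 38.0 to 46.6, and in the other 8 panels the genotypes overlap.

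The genes around Gart share its dose, apart from the receptors. Of 21 tested genes in a list of 24 within about a megabase of Gart, 16 were higher in Dp16 than in wild-type and 16 in Dp16 2xIFNRs, with none lower. The list was drawn up by position but does not hold every gene of that stretch: Gm15964, which overlaps Gart, is not in it. The background was 3.17% of all tested genes called higher in either comparison. Leaving out Gart and the 4 receptors, 11 of 16 rose in Dp16 and 14 of 16 in Dp16 2xIFNRs, with a median log2 fold of 0.55 in each against -0.009 and 0.007 over all genes. Compared with Gart, 39 of the 115 tested segment genes had a smaller log2 fold in Dp16 and 48 of 115 in Dp16 2xIFNRs. The segment median was 0.52 in both comparisons, and the lower quartile was 0.42 and 0.39.

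Son, which starts on the other side of the same intergenic stretch as Gart, had a smaller log2 fold, 0.27 ± 0.08 in Dp16 (adjusted p = 0.0585, edgeR) and 0.40 ± 0.08 in Dp16 2xIFNRs (adjusted p = 0.00626). The difference between Gart and Son was not tested. Dnajc28, a gene 2.2 kb beyond the end of Gart, had 0.32 ± 0.09 (adjusted p = 0.0368) and 0.45 ± 0.09 (adjusted p = 0.00442, edgeR). Tmem50b, a membrane protein gene 23.4 kb away, had 0.55 ± 0.09 and 0.47 ± 0.09, and both passed the edgeR threshold. Cryzl1, 42.4 kb away on the other side, had 0.46 ± 0.07 and 0.34 ± 0.07 and passed it as well. Donson, a replication fork protein gene 29.9 kb away with a mean of 1.56 CPM, had 0.83 ± 0.245 and 0.58 ± 0.245 and passed in neither.

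Further out, Itsn1, Atp5o, Mrps6, Kcne1, Runx1, Urb1, Eva1c and Synj1 were higher in both comparisons, with log2 folds from 0.473 to 0.981. Slc5a3 and Rcan1 had 0.45 and 0.61 in Dp16 (adjusted p = 0.0769 and 0.0744, edgeR) and rose by 0.54 and 0.70 in Dp16 2xIFNRs (adjusted p = 0.0312 and 0.0375). Paxbp1 had 0.36 in each comparison and did not pass. Ifngr2, the nearest receptor gene at 55.6 kb, had 0.76 ± 0.07 in Dp16 and 0.13 ± 0.07 in Dp16 2xIFNRs, and the latter did not pass (adjusted p = 0.333, edgeR). Il10rb had 0.605 ± 0.07 and -0.01 ± 0.07, and Ifnar1 had 0.58 ± 0.08 and 0.16 ± 0.08, again past the threshold in Dp16 only. Ifnar2 had 0.80 ± 0.05 in Dp16 and was still called higher in Dp16 2xIFNRs, at 0.20 ± 0.05 (adjusted p = 0.0368, edgeR). Between the 2 groups with the duplication Ifngr2 was lower in Dp16 2xIFNRs by -0.63 ± 0.07 (adjusted p = 0.000187, edgeR), while Tmem50b, the next gene towards Gart, had -0.07 ± 0.09 (adjusted p = 0.885). Of the genes tested, 0.0171% were called in that comparison, 3 genes, and these were Ifngr2, Il10rb and Ifnar2. Ifnar1 was -0.42 ± 0.08 between these groups and was not called (adjusted p = 0.113, edgeR).

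**Figure D3:**
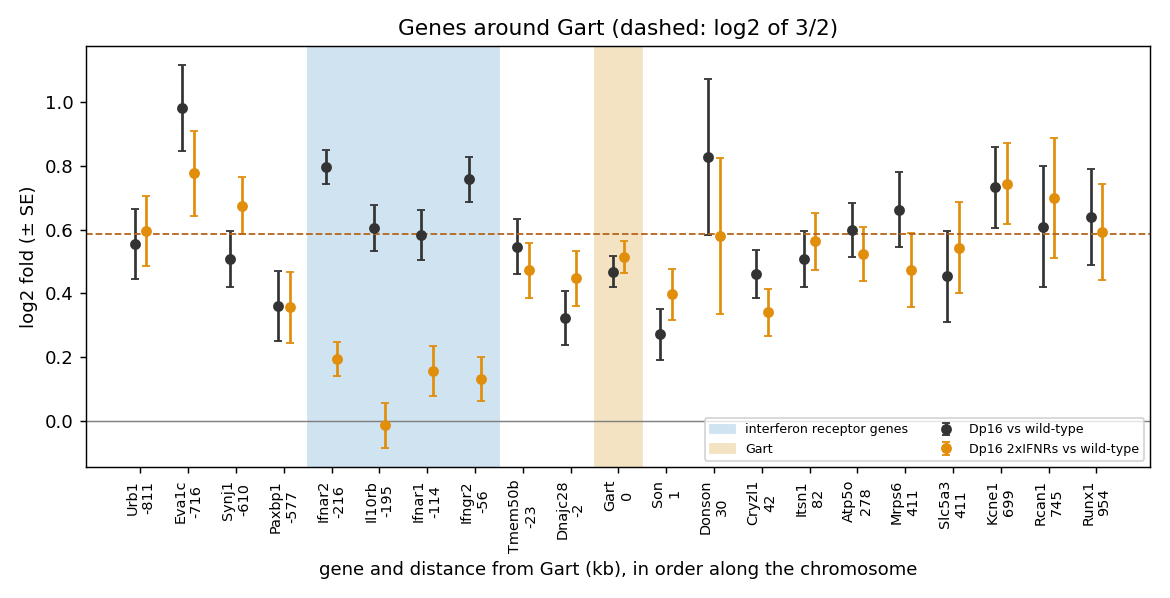
Log2 fold with its SE for 21 tested genes around Gart, in order along the chromosome and labelled with the distance from Gart in kb, for Dp16 and for Dp16 2xIFNRs over wild-type. The dashed line is the log2 of 3 over 2. The groups part at the 4 receptor genes, from Ifnar2 to Ifngr2, and lie close together from Tmem50b onward.

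No other of the 9 enzymes was called higher in a comparison of genotypes. Among 8 genes, 0 such calls lie near the 3.17% of all tested genes called higher against wild-type. Most of the intervals given below also hold rises smaller than that of Gart. In Dp16 against wild-type, 1 of the 9 enzymes was called, Gart, beside 4.23% of all tested genes (3.17% higher and 1.06% lower). Of the other 8, 0 were called by edgeR, 0 had an unadjusted p under 0.05 and 0 were called by DESeq2. Their median log2 fold was 0.02, against -0.009 over all genes. In Dp16 2xIFNRs against wild-type, 2 of 9 were called, Gart higher and Impdh2 lower, beside 4.79% of all tested genes (3.17% higher and 1.61% lower). The median of the other 8 was 0.046 against 0.007 over all genes. In Dp16 2xIFNRs against Dp16, 0 of 9 were called by edgeR, 0 had an unadjusted p under 0.05 and 0 were called by DESeq2, beside 0.0171% of all genes.

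Ppat, which catalyses the committed step, had 40.7, 42.7 and 46.4 CPM (lowest, median, highest) in wild-type, 36.2, 44.3 and 52.7 in Dp16 and 39.7, 47.3 and 54.0 in Dp16 2xIFNRs. The 3 ranges overlap. Its log2 difference from wild-type had a 95% permutation interval of -0.14 to 0.23 in Dp16 and -0.04 to 0.28 in Dp16 2xIFNRs. Within Dp16, the male Ppat values of 45.6, 51.8 and 52.7 CPM lay above the female values of 36.2, 41.95 and 42.9, while wild-type males and females overlapped. The sex difference of the Dp16 effect was -0.32 ± 0.14 on the log2 scale and did not pass after adjustment (adjusted p = 0.631, edgeR interaction term).

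Pfas, the amidotransferase after the first Gart steps, had 19.4, 27.1 and 30.5 CPM in wild-type, 18.6, 24.0 and 26.2 in Dp16 and 22.6, 24.5 and 29.0 in Dp16 2xIFNRs. Its interval against wild-type ran from -0.45 to 0.13 in Dp16 and from -0.22 to 0.155 in Dp16 2xIFNRs. Wild-type females, at 27.3, 30.4 and 30.5 CPM, lay above the wild-type males at 19.4, 21.2 and 26.9, and in Dp16 the sexes overlapped. The sex difference of the Dp16 effect on Pfas was -0.38 ± 0.18 (adjusted p = 0.631, edgeR interaction term).

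Paics had 225.8, 273.4 and 318.4 CPM in wild-type, 241.4, 279.6 and 321.2 in Dp16 and 240.9, 280.8 and 304.4 in Dp16 2xIFNRs. The interval of its log2 difference from wild-type was -0.07 to 0.15 in Dp16 and -0.07 to 0.13 in Dp16 2xIFNRs. A rise as large as that of Gart lies outside both. Most of the spread within each genotype followed sex, described below.

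Adsl had 38.3, 41.3 and 51.4 CPM in wild-type, 41.7, 42.2 and 49.9 in Dp16 and 37.7, 45.7 and 48.2 in Dp16 2xIFNRs, with intervals against wild-type of -0.12 to 0.18 and -0.14 to 0.26. Atic, which adds the last formyl group and closes the second ring, had 34.6, 38.0 and 41.8 CPM, then 35.8, 36.3 and 40.5, then 34.5, 38.1 and 41.3, with intervals of -0.15 to 0.09 and -0.13 to 0.16. For both genes the genotypes overlapped almost completely.

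On the guanine branch, Impdh2 fell in Dp16 2xIFNRs. It had 37.3, 39.8 and 45.8 CPM in wild-type, 33.2, 36.8 and 45.7 in Dp16 and 31.5, 34.8 and 38.7 in Dp16 2xIFNRs. The ranges overlap, and 5 of 6 Dp16 2xIFNRs animals lay below every wild-type animal. The fold of Dp16 2xIFNRs over wild-type was 0.863, a log2 fold of -0.21 ± 0.06 (SE, adjusted p = 0.0495, edgeR), just past the threshold, and the 95% permutation interval was -0.33 to -0.11. The direction held in the 28 alternatives, but the call was lost in 18 of them, with adjusted p from 0.0116 to 0.256. It was lost when any of wild-type replicates 1 to 5, any of the 6 Dp16 2xIFNRs replicates, or Dp16 replicate 1, 2, 4 or 6 was left out, with log2 folds of Impdh2 from -0.19 to -0.235 and adjusted p from 0.0515 to 0.114. Without wild-type replicate 5, which had the adrenal transcripts and the highest Impdh2 value, it was -0.19 (adjusted p = 0.0946). In Dp16 the Impdh2 log2 fold was -0.10 ± 0.06 (adjusted p = 0.433), and Dp16 2xIFNRs over Dp16 was -0.11 ± 0.06 (adjusted p = 0.85). The Dp16 males, at 33.2, 33.7 and 35.3 CPM of Impdh2, lay below the wild-type males at 37.3, 39.2 and 39.9. Females of these 2 genotypes overlapped, as did the males of Dp16 and Dp16 2xIFNRs. The sex difference of the Dp16 effect on Impdh2 was 0.17 ± 0.12 (adjusted p = 0.679, edgeR interaction term).

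Impdh1, the less abundant isozyme here, had 7.32, 9.27 and 11.8 CPM in wild-type, 8.44, 9.08 and 11.6 in Dp16 and 8.36, 10.1 and 12.1 in Dp16 2xIFNRs. It had the widest intervals of the 9 genes, -0.30 to 0.36 in Dp16 and -0.18 to 0.41 in Dp16 2xIFNRs. Impdh1 also had the lowest counts of the 9, and the part of low counts in the width was not tested. Gmps, which aminates XMP to GMP, had 52.9, 57.4 and 61.8 CPM, then 47.8, 59.6 and 63.9, then 54.9, 60.5 and 69.1, with intervals of -0.10 to 0.11 and -0.03 to 0.19. For each of the 8 other enzymes the upper bound lay below the lower bound of Gart in the same comparison, 0.393 in Dp16 and 0.428 in Dp16 2xIFNRs.

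**Figure D4:**
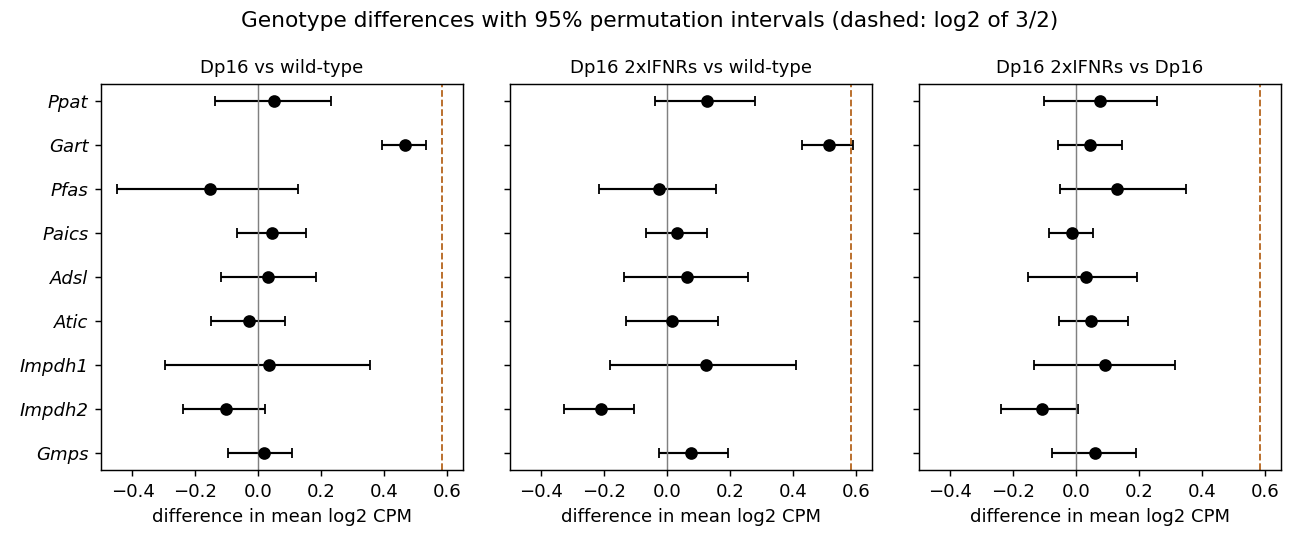
Difference in mean log2 CPM with its 95% permutation interval for each of the 9 enzymes, in one panel for each of the 3 comparisons of genotypes. Gart stands apart in both comparisons with wild-type, at 0.47 and 0.51, and Impdh2 lies below 0 in Dp16 2xIFNRs against wild-type. The dashed line is the log2 of 3 over 2.

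Sex moved these enzymes in opposite directions. Of the 9, 5 were called between females and males, 3 lower and 2 higher in females, beside 38.8% of all tested genes (19% lower and 19.7% higher), so little can be read from the count itself. Paics was at 285.7 to 321.2 CPM in the 9 males and at 225.8 to 263.9 in the 9 females, without overlap, a log2 fold of female over male of -0.29 ± 0.04 (adjusted p = 8.23e-06, edgeR). Gart was lower in females in each genotype. Its wild-type males had 44.1, 45.9 and 46.6 CPM and its females 38.0, 39.5 and 39.8. In Dp16 the males had 59.2, 64.7 and 65.3 CPM of Gart and the females 52.7, 53.0 and 56.2, and in Dp16 2xIFNRs the males had 62.4, 66.3 and 67.7 and the females 50.8, 56.8 and 58.7. The sexes did not overlap within any of the 3 genotypes.

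The female over male log2 fold of Gart was -0.23 ± 0.04 (adjusted p = 0.000136, edgeR). Dp16 females nevertheless exceeded wild-type males in Gart. The genotype effect on Gart did not differ detectably between the sexes: the interaction was -0.004 ± 0.104 in Dp16 (adjusted p = 0.995, edgeR) and -0.02 ± 0.10 in Dp16 2xIFNRs (adjusted p = 1). None of the 9 enzymes passed this edgeR test, and 2 had an unadjusted p under 0.05, Ppat and Pfas in Dp16. It called 0.0171% of all genes in Dp16 and 0.00569% in Dp16 2xIFNRs. Gmps was lower in females by -0.16 ± 0.05 (adjusted p = 0.0103), with 57.8 to 69.1 CPM in males and 47.8 to 62.8 in females. Impdh2 was higher in females by 0.17 ± 0.05 (adjusted p = 0.00866), with 31.5 to 39.9 CPM in males and 34.5 to 45.8 in females. Pfas was higher in females by 0.22 ± 0.08 (adjusted p = 0.0315), and Ppat, Adsl, Atic and Impdh1 did not pass.

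The sex calls depend on the scaling. The median log2 fold of female over male over all genes was 0.026 with TMM scaling and 0.132 on the deposited RPKM scale, and on the latter 75.3% of calls were higher in females, against 50.9% with TMM scaling. Relative to the median of all genes, Gart was at -0.255 with TMM and -0.237 with RPKM, Paics at -0.32 and -0.30, Gmps at -0.19 and -0.17, Impdh2 at 0.147 and 0.161 and Pfas at 0.19 and 0.20. Without that correction, Gmps on the RPKM scale was -0.04 (adjusted p = 0.513, limma), and Atic at 0.16 and Impdh1 at 0.28 passed the threshold (adjusted p = 0.00799 and 0.0251). The Pfas call was lost without wild-type replicate 1, 3, 5 or 6, and also without Dp16 2xIFNRs replicate 1 or 4, or without Dp16 replicate 4 (log2 folds from 0.173 to 0.211, adjusted p from 0.0526 to 0.0676 in edgeR). Ppat, with -0.155 and an adjusted p of 0.054, passed without wild-type replicate 1, 3 or 5, without Dp16 2xIFNRs replicate 3 or without Dp16 replicate 5 (log2 folds from -0.169 to -0.183).

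Calls between genotypes among genes that feed or drain the pathway are given by list, beside the shares of all tested genes. The 2 adenylosuccinate synthetases (Adss and Adssl1), the 5 tested genes of PRPP supply, the 8 of purine salvage, the 11 nucleotide kinases and reductase subunits, the 5 of pyrimidine synthesis and the 10 regulators of the pathway had no member called in any comparison of genotypes, where 4.23%, 4.79% and 0.0171% of all tested genes were called. With lists this short, 0 calls lie near those shares. At an unadjusted p under 0.05 these lists held 0, 0, 1, 2, 0 and 2 genes in Dp16, 1, 0, 2, 1, 0 and 1 in Dp16 2xIFNRs, and 1 gene in all, a kinase or reductase gene, between the 2 groups with the duplication. DESeq2 called 1 gene of these lists, again a kinase or reductase gene, in Dp16. Of 19 proliferation genes none was called by edgeR or DESeq2, with 2 at an unadjusted p under 0.05 in each comparison with wild-type and 1 between the groups with the duplication. Their summed level was 118.4 to 129.5 CPM in wild-type, 116.8 to 141.3 in Dp16 and 119.7 to 135.6 in Dp16 2xIFNRs.

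Of 22 tested folate and one-carbon genes, which supply the formyl groups used by Gart and Atic, 2 were lower in each comparison with wild-type and none was higher, beside 1.06% and 1.61% of all tested genes lower and 3.17% higher in each. Ftcd, a folate enzyme of histidine breakdown, fell from 8.94 ± 5.66 CPM in wild-type to 3.98 ± 2.46 in Dp16 and 3.93 ± 2.56 in Dp16 2xIFNRs (SD, n = 6), with log2 folds of -1.13 ± 0.17 and -1.18 ± 0.17 (adjusted p = 0.000695 and 0.000552, edgeR). Shmt2, the mitochondrial serine hydroxymethyltransferase, was lower in Dp16 by -0.28 ± 0.08 (adjusted p = 0.046), and Tyms, thymidylate synthase, in Dp16 2xIFNRs by -0.36 ± 0.09 (adjusted p = 0.0241). The list's median log2 fold was -0.02 and -0.06. Of 14 breakdown genes, 1 was called, beside 3.17% of all genes higher in that comparison: Nt5e, the ecto-nucleotidase that turns AMP into adenosine, was 0.66 ± 0.156 higher in Dp16 2xIFNRs (adjusted p = 0.0184) and 0.40 ± 0.155 in Dp16 (adjusted p = 0.172). Of 9 urate and organic anion transport genes, Slc22a8 alone was called, lower in both beside the 1.06% and 1.61% of all genes, at -0.42 ± 0.09 and -0.43 ± 0.09 (adjusted p = 0.0109 and 0.00884, edgeR).

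More genes of these lists were called between the sexes, as were more genes in all, 19% lower and 19.7% higher in females, and the counts below stand beside those shares. In females, 6 of 9 urate transport genes were lower and 2 higher. Slc22a12, the main urate reabsorption carrier, was lower by -1.11 ± 0.06 and Slc22a6 by -1.42 ± 0.08. Abcc4 was 1.27 ± 0.15 higher, as was Slc22a8, which was lower in both Dp16 groups, by 0.899 ± 0.075. Of the folate genes 7 were lower and 5 higher, including Shmt2 at -0.65 ± 0.06 and its cytosolic counterpart Shmt1 at 0.87 ± 0.05. Ftcd, lower in both Dp16 groups, was also lower in females, by -1.805 ± 0.143, with means of 8.754 CPM in males and 2.48 in females. Of 8 salvage genes 3 were lower, with Hprt at -0.42 ± 0.06, and 1 was higher. The 2 adenylosuccinate synthetases moved apart, Adss by -0.195 ± 0.04 and Adssl1 by 0.32 ± 0.10. Every value in this paragraph passed the edgeR threshold, with the largest adjusted p at 0.0137.

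Over the 18 libraries the genes whose log2 CPM was most like that of Gart, among 13853 genes, were Cct8 (r = 0.965), App (0.947), Mrpl39 (0.936), Hspa13 (0.935) and Igsf5 (0.922), all on the segment and so sharing its copy number. After the means of each genotype and sex were removed they were Pip5k1b (0.885), Slc26a1 (0.884), Dyrk1b (0.882), Thpo (0.882) and Ubox5 (0.88). No chance level was worked out for the highest of 13853 correlations, and the part of library depth and tissue composition in them was not tested. Between the 9 enzymes, after the same means were removed, 0 of 36 pairs passed adjustment over the pairs and 5 had an unadjusted permutation p under 0.05. The strongest pair was Gart and Impdh2, with r = -0.65 (permutation p = 0.00617, adjusted p = 0.222) and rho = -0.672 (p = 0.00856, adjusted p = 0.308), and r = -0.599 without the 2 animals farthest from the median of Gart. Within genotypes r was -0.294 in wild-type, -0.605 in Dp16 and -0.956 in Dp16 2xIFNRs.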

How the data were processed

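RNA was extracted with TRIzol and strand-specific polyA libraries were sequenced as paired ends, per the labels' protocols. The submitters' processing notes name HISAT2 2.1.0, HTSeq 0.6.1, SAMtools 1.5, FastQC 0.11.5, bcl2fastq and the GRCm38 build. The authors deposited raw counts per gene and RPKM values of the same genes, and counts over RPKM gave 1 length per gene within 0.1% in 12540 of 12540 genes checked. Columns left unused numbered 0. Positions are from GENCODE M21, which held 55144 of the 55385 identifiers.

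Counts were tested with edgeR 4.0.16 (quasi-likelihood, TMM) under R 4.3.3, fitting genotype and sex over the 18 libraries together. The filter (minimum count 10, minimum total 15) kept 17575 genes and removed 37810, and Benjamini-Hochberg adjustment ran over all kept genes with a threshold of 0.05. The SE is the log2 fold over the square root of F and is approximate. The common biological variation (BCV) came to 16.8%. CPM values use TMM, and log2 CPM a prior count of 2. Intervals come from inverting the exact permutation within sex. Correlations used 100000 permutations within genotype and sex. As alternatives the fit was repeated after RLE scaling, after dropping the filter or raising it to an average log2 CPM of 1, without sex, with age added, and with sample numbers entered as blocks. Each pair of genotypes was also fitted by itself, each library was dropped in turn, and DESeq2 1.42.0 was run on the counts. With limma 3.58.1, voom took the last number of each sample's description as a random effect, and a trend fit used log2 RPKM after adding 0.1. Some description numbers recur across genotypes, and what they mark is not given in the sources used here.

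The 9 genes and the lists were chosen with earlier results of these data known. Named genes are the 9, every tested gene of the list around Gart, and the 5 most like Gart by each measure. Of each other list at most 3 called genes per direction are named, and a gene called in one comparison may also be given in the other. The procedure was tested on simulated data. No promoter window was found for Pfas.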

Additional observations from a re-analysis of the deposited data

Results flagged for a closer look

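Of 27 sets of 6 animals (9 enzymes in 3 genotypes), 2 held an animal far from the others, where chance gives about 1 in 20. Atic in Dp16 replicate 3 was 40.462 CPM, against 36.961 in the nearest animal, a gap of 0.749 of the range of its group. The same library had the highest summed lymphocyte, fat and proliferation markers of the study, at 692.7, 247.8 and 141.3 CPM. Its macrophage markers summed to 340.7 CPM, below the 345.1 CPM of Dp16 2xIFNRs replicate 5. Without it the Atic log2 fold of Dp16 over wild-type was -0.06 (adjusted p = 0.714, edgeR).

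Impdh2 in wild-type replicate 5 was 45.834 CPM, against 39.962 in the nearest animal, a gap of 0.669 of the range. That library had 87.91 CPM of adrenal markers, and 3.087 to 13.26 CPM were measured elsewhere. The part of any of these marker levels in the flagged Atic and Impdh2 values was not tested.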

How the results depend on the processing

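Every enzyme kept the side of its call in Dp16 against wild-type and in Dp16 2xIFNRs against Dp16 under all 28 alternatives. Gart did so too in Dp16 2xIFNRs against wild-type under 28 and between the sexes under 25, with log2 folds from 0.456 to 0.496 in Dp16, from 0.489 to 0.545 in Dp16 2xIFNRs and from -0.25 to -0.105 in females. No called value changed sign. The enzymes called in Dp16 2xIFNRs against wild-type fell from 2 to 1, by loss of Impdh2, with no filter on low counts, with no sex covariate and with limma-trend on log2(RPKM + 0.1), and ranged from 1 to 2 when a library was left out. The enzymes called between the sexes ranged from 4 to 6 when a library was left out.

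Genes called in Dp16 against wild-type numbered 744, but 190 with no sex covariate, 1236 in DESeq2, 453 with the 2 groups alone and 429 to 815 with a library left out (429, 462 and 478 on leaving out Dp16 replicate 3, Dp16 replicate 1 or wild-type replicate 4). In Dp16 2xIFNRs against wild-type they numbered 841, but 234 with no sex covariate, 1287 in DESeq2 and 526 to 920 with a library left out (526 without wild-type replicate 1 and 552 without Dp16 2xIFNRs replicate 1). The cause was not tested.

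The labels number the samples 1 to 6 in each genotype. Of 18 pairs of same-numbered samples, 7 correlated above 0.1 (range -0.165 to 0.202), and 7 of 18 libraries correlated best with their own number. No chance share was worked out for these counts, so they cannot decide whether the numbers pair the animals. With the number as a replicate block, 910 and 945 genes were called against wild-type, and the enzymes called between the sexes fell from 5 to 3, without Pfas and Gmps (0.143 and -0.138, adjusted p = 0.225 and 0.105, edgeR).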
